A study of Danio rerio with 21 samples.

Results

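The genes described here are those of the dopamine and noradrenaline system that the study's series measured in the zebrafish telencephalon: th and dbh (synthesis), slc6a3 (re-uptake) and the receptors drd1b, drd2a, drd2b, drd3, drd4a and drd4b. They were chosen by name and make up 9 of the 32057 genes in the count files. Their Ensembl IDs are ENSDARG00000030621 (th), ENSDARG00000069446 (dbh), ENSDARG00000004219 (slc6a3), ENSDARG00000038918 (drd1b), ENSDARG00000056926 (drd2a), ENSDARG00000011091 (drd2b), ENSDARG00000032131 (drd3), ENSDARG00000038363 (drd4a) and ENSDARG00000035820 (drd4b). Adult zebrafish of the AB strain were kept for 36 days next to a 137Cs source, a gamma emitter, at 0.05, 0.5 or 5 mGy/h, or were left unexposed. The telencephalon, the forebrain part that holds the pallium, subpallium and olfactory bulbs, was then dissected and sequenced as stranded mRNA, each library being a pool of telencephalons, with the numbers of males and females balanced per condition. The libraries came in batches. In batch 1 there were 3 control libraries and 3 for each of the dose rates 0.5 and 5 mGy/h. In batch 2 there were 6 controls and 6 libraries of the 0.05 mGy/h group. Exposed libraries were set only against controls of the same batch, and the labels do not say which step the batches refer to. Both batch 1 comparisons share their controls. No source states that the libraries of a group came from separate tanks, so the p-values measure only the spread between these pools.

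Tyrosine hydroxylase (th) makes L-DOPA from tyrosine and is the rate-limiting step of dopamine synthesis, and dopamine beta-hydroxylase (dbh) turns dopamine into noradrenaline. The dopamine transporter slc6a3 takes dopamine back up into the neuron that released it. D1-type receptors (drd1b) raise cyclic AMP in the receiving cell and D2-type receptors (drd2a, drd2b, drd3, drd4a, drd4b) lower it; pairs such as drd2a and drd2b are duplicates from the teleost genome duplication. In fish, telencephalic dopamine neurons lie in the olfactory bulb and the subpallium, further dopaminergic fibres arrive from the diencephalon, and noradrenergic cell bodies lie in the hindbrain, so that only their fibres reach the telencephalon.

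The libraries held 19.03 to 71.6 megareads counted on genes, and a count of 3, used here as the floor of detection, corresponded to 0.0419 to 0.158 CPM (counts per megaread). The telencephalic gene TBR1 was at 87.3 to 212 CPM over all 21 libraries (names in capitals are those of the reference name table). Across the midbrain and hindbrain list, 13 gene IDs, the summed level was 1.32 to 4.92 CPM. Of this list only hoxb1a was at 0 in all libraries, while a PAX7 ID reached 2.80 CPM and en1b 1.49 CPM. Markers of neighbouring regions varied between libraries. The summed level of the pineal list (4 gene IDs) was 206, 7.47 and 6.03 CPM in the batch 1 controls, 5.61 to 135 at 0.5 mGy/h and 95.2 to 252 at 5 mGy/h, against 3.42 to 79.0 in batch 2, and crx, a photoreceptor regulator, was at 0 in 10 libraries. For 2 libraries the agreement with their own group was low: 5 mGy/h replicate 1 (log-scale correlation 0.924 to 0.937 with its group) and control batch 2 replicate 6 (0.856 to 0.869), where all other pairs within a group reached 0.979 to 0.990. Results on the 9 genes that rest on them are given with and without them.

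All 9 genes were detected at every dose rate and passed the filter on low counts in each comparison, with 1 to 919 reads per library. None of the 9 passed the test at any dose rate, for which an edgeR adjusted p under 0.05 and at least a 1.5-fold change were asked. The background of such calls was itself close to none, at 1 of 19454 genes (0.00514%) at the lowest dose rate and 1 of 21307 (0.00469%) for each of the other 2. An unadjusted p under 0.05 was found for 0 of the 9, against 4.26%, 2.37% and 5.76% of all genes tested (0.05, 0.5 and 5 mGy/h). In the same order, DESeq2 called 15, 11 and 88 genes, and 0 of the 9 each time. The median log2 fold change of the 9 was 0.05, -0.01 and 0.18, beside medians of -0.01, 0.01 and 0.03 over all genes tested. The 95% intervals reached from a 1.79-fold decrease to a 2.25-fold increase over the 9 genes at 0.05 mGy/h, and from 2.29-fold lower to 3.97-fold higher at 5 mGy/h.

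**Figure D1:**
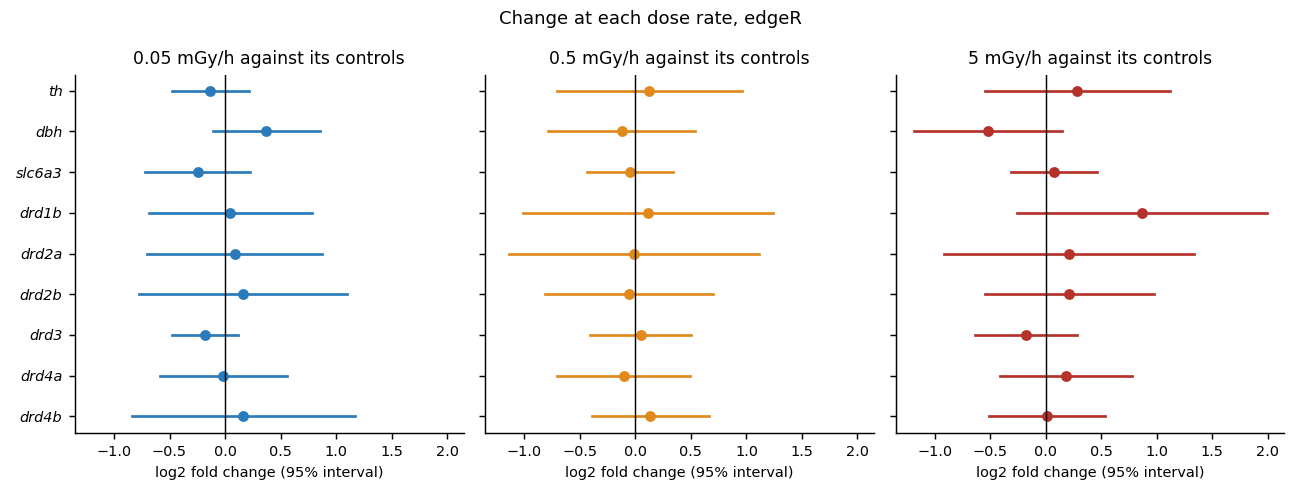
Log2 fold change of each gene against the controls of its own batch (points) with the 95% interval of the edgeR fit (lines), for the 0.05 mGy/h group (6 against 6 libraries) and the other 2 (3 against 3 each). Every interval crosses 0, and the estimates farthest from 0 are those of drd1b (0.86) and dbh (-0.53) at 5 mGy/h.

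Among the synthesis genes, th was counted at 6.64, 3.85 and 7.28 CPM in the 3 controls of batch 1. At 0.5 mGy/h it was at 7.01, 6.06 and 6.30 CPM, and at 5 mGy/h at 3.95, 10.7 and 6.97 CPM. The 5 mGy/h libraries thus held both the highest and nearly the lowest th level of the batch, and both dose rates overlapped the controls. The log2 fold change was 0.13 (SE 0.364, edgeR adjusted p 1.00) at 0.5 mGy/h and 0.28 (SE 0.364, adjusted p 0.994) at 5 mGy/h. In batch 2, th ranged from 9.10 to 14.0 CPM (median 11.6) in controls and from 7.43 to 12.9 CPM (median 11.3) at 0.05 mGy/h, and the log2 fold change was -0.13 (SE 0.160, adjusted p 0.780). These batch 2 groups overlapped almost completely, and the 95% interval, -0.48 to 0.21, was the narrowest of any th comparison. Control th was 1.97-fold higher in batch 2 than in batch 1, a difference between batches that was not tested.

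The noradrenaline-forming enzyme dbh had a low count, with 28 to 94 reads per library. In batch 1 it stood at 1.46, 1.69 and 1.16 CPM in controls, 1.35, 1.28 and 1.32 CPM at 0.5 mGy/h, and 1.41, 0.918 and 0.670 CPM at 5 mGy/h. All 6 irradiated libraries of the batch lay below the control mean of 1.44 CPM. Every 0.5 mGy/h library and 5 mGy/h replicate 1 nevertheless lay inside the control range. The fold changes were -0.12 (SE 0.288, edgeR adjusted p 1.00) at 0.5 mGy/h and -0.53 (SE 0.290, adjusted p 0.918) at 5 mGy/h. At 0.05 mGy/h the direction was the other one. Control dbh in batch 2 ranged from 1.15 to 1.84 CPM (median 1.40) and irradiated dbh from 1.06 to 2.71 CPM (median 1.87), 5 of the 6 irradiated libraries being above the control mean, and the log2 fold change was 0.37 (SE 0.221, adjusted p 0.750). Markers of noradrenergic neurons were uneven. slc6a2, the noradrenaline transporter, was at 35.3 to 97.2 CPM in the 21 libraries, while phox2a, a transcription factor needed for the noradrenergic fate, reached at most 0.0659 CPM (4 reads) and pnmt, which makes adrenaline, at most 0.103 CPM. Counting without strand lost a part of the dbh reads, leaving 0.321 to 0.787 of the stranded count, while the opposite strand held 0 to 2 reads per library. For drd4a 0.721 to 0.889 was left. The cause of this loss was not tested.

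For the transporter slc6a3, exposed and control libraries overlapped at each dose rate. The batch 1 controls had 10.5, 9.68 and 14.4 CPM, the 0.5 mGy/h libraries 12.2, 11.4 and 9.74 CPM, and the 5 mGy/h libraries 12.4, 11.7 and 12.2 CPM. The 3 values at 5 mGy/h lay within the control range, and the log2 fold changes were -0.05 (SE 0.169, edgeR adjusted p 1.00) and 0.08 (SE 0.169, adjusted p 0.997). In batch 2 the controls ranged from 10.5 to 23.0 CPM (median 11.5) and the 0.05 mGy/h libraries from 8.52 to 16.6 CPM (median 10.8). The 23.0 CPM came from control replicate 6, the other 5 controls being at 10.5 to 13.6 CPM. The log2 fold change at 0.05 mGy/h was -0.25 (SE 0.219, adjusted p 0.757) with that library and -0.04 (SE 0.146, adjusted p 0.967) without it. Control slc6a3 in batch 2 was 1.01-fold that of batch 1 when replicate 6 was left out, which was not tested.

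The D1-type receptor drd1b had the widest spread of group means among the 9, 4.06-fold from the lowest to the highest, against 1.14-fold to 1.97-fold for the others. Its level was 1.08, 0.948 and 0.999 CPM in batch 1 controls and 1.27, 1.02 and 0.985 CPM at 0.5 mGy/h. At 5 mGy/h it was 0.555 CPM in replicate 1, and 2.20 and 2.72 CPM in replicates 2 and 3. A single group thus held the lowest and the highest levels of the batch: 2 libraries averaged 2.44-fold above the controls, and the third was below all of them. The log2 fold change at 5 mGy/h was 0.86 (SE 0.490, 95% interval -0.26 to 1.99, edgeR adjusted p 0.935), and at 0.5 mGy/h it was 0.12 (SE 0.491, adjusted p 1.00). Without 5 mGy/h replicate 1 the change at 5 mGy/h passed the test, at 1.28 (SE 0.204, adjusted p 0.00989), on 2 libraries against 3. That fit called 1375 of 21673 genes (6.34%), 1325 of them higher, and 24.1% of all genes had an unadjusted p under 0.05, as did 4 of the 9. In it dbh (-0.85, adjusted p 0.0805), drd2a (0.63, adjusted p 0.0724) and drd2b (0.52, adjusted p 0.136) did not pass.

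In batch 2, drd1b ranged from 0.737 to 5.20 CPM (median 4.56) in controls and from 3.54 to 5.01 CPM (median 3.99) at 0.05 mGy/h. The lowest value was control replicate 6; the other 5 controls started at 3.60 CPM. The log2 fold change was 0.05 (SE 0.339, edgeR adjusted p 0.954) with all libraries and -0.17 (SE 0.131, adjusted p 0.780) without replicate 6, so its sign depended on that library. Controls without replicate 6 stood 4.54-fold above the batch 1 controls, more than for any other of the 9 genes, and with it 3.90-fold. The related drd1a had 0 reads in all 21 libraries, and DRD5, another D1-type receptor, at most 0.205 CPM.

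**Figure D2:**
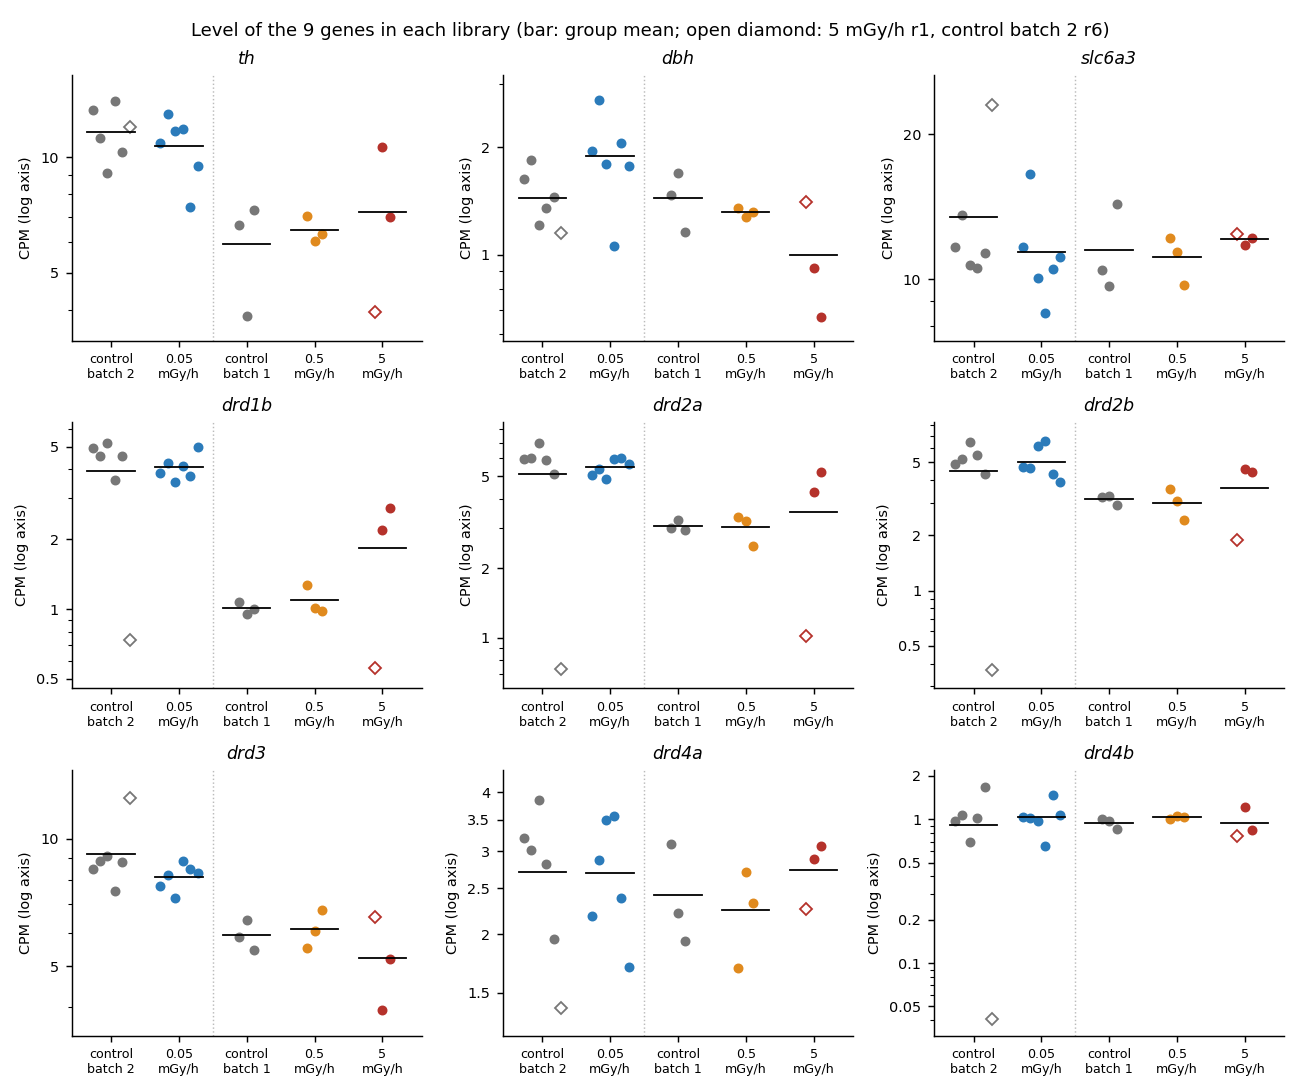
Level of each of the 9 genes in CPM (log axis) in every library, by group, with batch 2 left and batch 1 right of the dotted line; bars are group means and open diamonds mark 5 mGy/h replicate 1 and control batch 2 replicate 6. drd1b, drd2a and drd2b were lowest in those 2 libraries of all 21, drd1b at 0.555 and 0.737 CPM, while slc6a3 (23.0 CPM) and drd3 (12.5 CPM) were highest in the latter.

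The duplicates drd2a and drd2b, D2-type receptors found on dopamine neurons and their targets, followed drd1b. In batch 1, drd2a was at 2.98, 3.25 and 2.92 CPM in controls, 3.33, 3.22 and 2.49 CPM at 0.5 mGy/h, and 1.02, 4.26 and 5.21 CPM at 5 mGy/h. The corresponding drd2b levels were 3.24, 3.27 and 2.94 CPM, then 3.57, 3.06 and 2.42 CPM, then 1.88, 4.58 and 4.44 CPM. In both genes the 5 mGy/h libraries straddled the controls, with replicate 1 below and replicates 2 and 3 above all of them. At 0.5 mGy/h the log2 fold changes were -0.01 (SE 0.490) for drd2a and -0.06 (SE 0.331) for drd2b, and at 5 mGy/h both were 0.21 (SE 0.489 and 0.330), with edgeR adjusted p-values of 1.00, 1.00, 0.999 and 0.995 in that order. The errors at both dose rates come from 1 spread shared by the batch 1 groups. For drd2a the SD was 0.175 CPM in controls, 0.454 CPM at 0.5 mGy/h and 2.20 CPM at 5 mGy/h. At 0.05 mGy/h, drd2a went from 0.737 to 6.98 CPM (median 5.94) in controls to 4.87 to 5.99 CPM (median 5.50), and drd2b from 0.369 to 6.46 CPM (median 5.07) to 3.91 to 6.53 CPM (median 4.70). The minimum of both control groups was again replicate 6, 8.14-fold and 14.3-fold under the mean of its group mates, on 18 and 9 reads. With it the changes were 0.09 (SE 0.365, adjusted p 0.924) and 0.16 (SE 0.433, adjusted p 0.874), without it -0.14 (SE 0.108, adjusted p 0.775) and -0.08 (SE 0.155, adjusted p 0.924).

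The receptor drd3, a D2-type receptor of limbic regions in mammals, went the opposite way in those libraries. It stood at 5.88, 6.44 and 5.47 CPM in batch 1 controls, 5.53, 6.04 and 6.79 CPM at 0.5 mGy/h, and 6.55, 3.95 and 5.19 CPM at 5 mGy/h, the highest of the last group being replicate 1. In batch 2 it ranged from 7.53 to 12.5 CPM (median 8.84) in controls, with 12.5 CPM in replicate 6, and from 7.23 to 8.86 CPM (median 8.26) at 0.05 mGy/h. Its changes were -0.18 (SE 0.137, edgeR adjusted p 0.750) at 0.05, 0.05 (SE 0.198, adjusted p 1.00) at 0.5 and -0.18 (SE 0.198, adjusted p 0.994) at 5 mGy/h. All 6 libraries at 0.05 mGy/h lay under the control mean of 9.22 CPM, which replicate 6 raises from 8.56 CPM, and the change without it was -0.08 (SE 0.0890, adjusted p 0.846). Every batch 2 library exceeded every batch 1 library in drd3. For drd1b this held without control batch 2 replicate 6, the other batch 2 libraries starting at 3.54 CPM, above the batch 1 maximum of 2.72 CPM.

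The D4-type receptors are further D2-class members. For drd4a the levels were 3.10, 2.22 and 1.94 CPM in batch 1 controls, 1.70, 2.71 and 2.32 CPM at 0.5 mGy/h, then 2.26, 2.88 and 3.08 CPM in the 5 mGy/h group, and 1.39 to 3.86 CPM (median 2.92) in batch 2 controls against 1.70 to 3.56 CPM (median 2.63) at 0.05 mGy/h. All 5 groups overlapped. For drd4b they were 0.997, 0.968 and 0.859 CPM, then 1.004, 1.05 and 1.04 CPM, then 0.768, 1.22 and 0.837 CPM, and in batch 2 they were 0.0409 to 1.67 CPM (median 0.996) against 0.650 to 1.47 CPM (median 1.04). The 0.0409 CPM of control replicate 6 was a single read, below the floor. At 0.5 mGy/h all 3 drd4b values lay above all 3 controls, by as little as 0.997 against 1.004 CPM, which made it the 1 gene of the 9 whose groups did not overlap in any comparison. Over all genes the groups did not overlap for 11.1% in that comparison, for 8.92% in the 5 mGy/h one and for 0.894% in batch 2. The log2 fold changes of drd4a and drd4b lay between -0.11 and 0.18 at all 3 dose rates, with edgeR adjusted p-values of 0.883 to 1.00. A further gene of the family, drd4-rs, had 39.6 to 74.7 CPM, and CPM are not corrected for gene length, so that levels of different genes were not ranked.

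The 5 groups of each gene overlapped with their neighbours in the order of mean levels, with 2 exceptions: drd3 between 0.05 mGy/h and 0.5 mGy/h, which are in different batches, and drd4b between 0.5 mGy/h and control batch 1. Whether the change at a dose rate differed between batches was tested in a single fit of all 21 libraries. None of the 9 passed for 0.5 against 0.05 or for 5 against 0.05 mGy/h, as was true of every gene tested in edgeR (0 of 21293, 0%, in both), where DESeq2 called 3 and 5 genes and 0 of the 9. The unadjusted p was under 0.05 for 432 genes (2.03%) and 941 genes (4.42%). One of the latter was dbh, whose change at 5 mGy/h was 0.91 log2 units below that at 0.05 mGy/h (-0.91, SE 0.367, 95% interval -1.68 to -0.14, unadjusted p 0.0232, edgeR adjusted p 0.879). Without 5 mGy/h replicate 1 and control batch 2 replicate 6, drd1b (1.46, SE 0.230, adjusted p 0.000325) and drd2a (0.79, SE 0.198, adjusted p 0.0184) passed, dbh did not (-1.14, SE 0.359, adjusted p 0.0708), and 1446 of 21528 genes (6.72%) were called.

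The library deviations were shared by several receptors and some of their partners. In control batch 2 replicate 6, 6 of the 9 genes were below the range of the other 5 controls (dbh, drd1b, drd2a, drd2b, drd4a and drd4b), slc6a3 and drd3 were above it and th was inside. The share of all genes outside that range was not computed, so this count has no background and is not a result about these genes. The drop was 6.20-fold for drd1b, and similar in gnal (6.65-fold) and adcy5 (6.67-fold), the G protein subunit and adenylyl cyclase through which D1-type receptors act in the mammalian striatum. It was 34.0-fold for pde10a, the phosphodiesterase of striatal neurons (1.23 CPM against a mean of 41.8), and slc18a2, the vesicular monoamine transporter, was at 0.409 against 6.97 CPM. Other genes of receptor transduction and striatal output went the other way, above every other batch 2 library. They were gnal2 (53.1 against at most 45.9 CPM), ppp1r1b (5.65 against 5.25), penka (125 against 50.8), PENK (242 against 113) and pdyn (114 against 62.0). Marker lists of several cell types and regions stood apart in the same library. The summed radial glia list (7 gene IDs) was 5608 CPM against 2607 to 2885 CPM in the other controls, the red cell list (2 gene IDs) 325 against 59.5 to 123 CPM, and the microglia list (6 gene IDs) 6.35 against 13.7 to 15.99 CPM. Its TMM factor was 0.761, where the other controls of the batch had 0.966 to 1.02, and 39.9% of its reads were not counted on genes, against 42.2% to 44.4%. Among preoptic genes oxt, which encodes the oxytocin-like peptide, was at 1310 CPM against a mean of 97.5 CPM, and the summed preoptic and hypothalamic list (7 gene IDs, none of them at 0 in all libraries) was 1631 CPM against 131 to 233 CPM, most of it oxt. SIM1, on the same list, was below the other controls (3.07 against 3.34 to 6.85 CPM). tac1, the tachykinin precursor, was at 564 against 178 CPM. The part of region content or RNA quality in these values was not tested, and in bulk tissue fewer cells of a type and less RNA per cell cannot be told apart.

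In 5 mGy/h replicate 1 the same receptors were low: drd1b was 4.44-fold, drd2a 4.63-fold and drd2b 2.40-fold under the mean of replicates 2 and 3. Here th was low as well, at 2.23-fold under, with dbh 1.77-fold and drd3 1.43-fold above. Again pde10a (0.619 CPM against a mean of 16.4) and slc18a2 (0.363 against 2.61 CPM) were far lower. gnal (9.07 against 26.0 CPM) and adcy5 (13.6 against 27.6 CPM) were lower too. gnal2 (50.4 against 44.0 CPM), PENK (151 against 116 CPM) and arpp21 (137 against 106 CPM) were instead above both group mates. Within its group the library was highest for the telencephalon list (1311 against 1042 and 1063 CPM), radial glia (4178 against 3331 and 3610 CPM) and red cells (198 against 101 and 120 CPM), and lowest for microglia (7.64 against 19.3 and 20.4 CPM), as control batch 2 replicate 6 was within its own. The preoptic and hypothalamic list was at 224 CPM against 245 and 391 CPM. The part of these markers in the receptor levels was not tested.

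**Figure D3:**
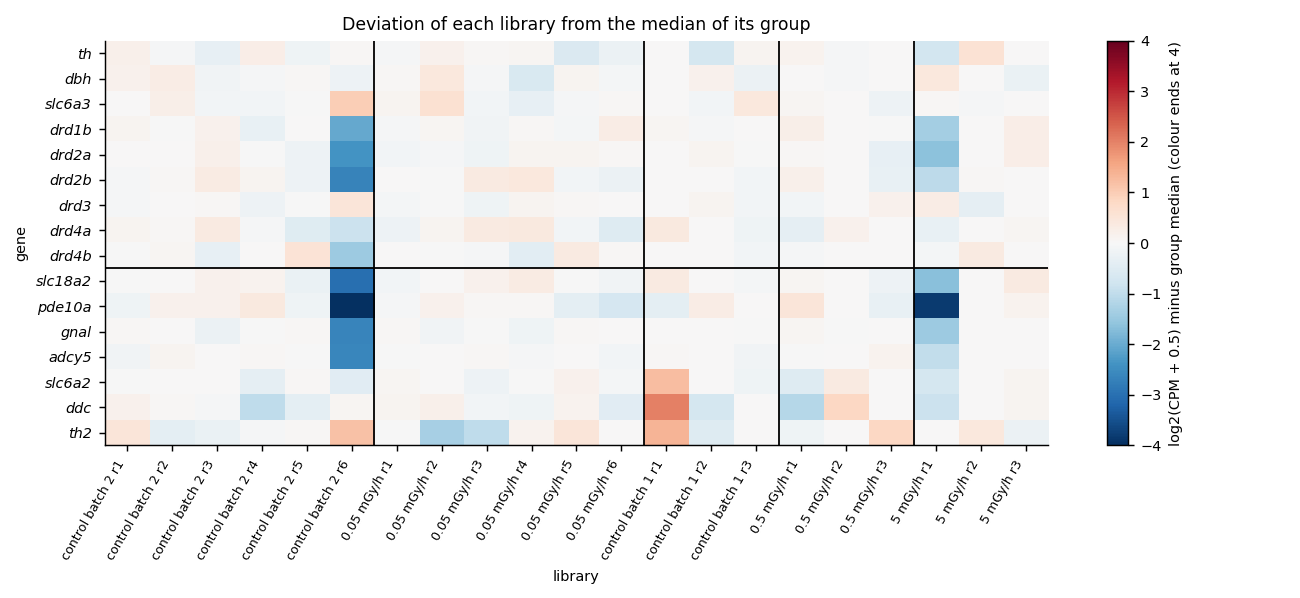
Each library's log2(CPM + 0.5) minus the median of its group, for the 9 genes (above the line) and 7 partners (below), with groups separated by vertical lines; blue is lower and red higher, and the colour scale ends at 4 log2 units. Control batch 2 replicate 6 and 5 mGy/h replicate 1 form blue columns over drd1b, drd2a, drd2b, slc18a2, pde10a, gnal and adcy5, and slc6a2 and ddc deviate most in control batch 1 replicate 1.

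After subtraction of the group means, drd1b and drd2a had a Pearson correlation of 0.97 over the 21 libraries (Spearman 0.84) and drd1b and drd2b one of 0.89 (Spearman 0.66). Leaving out those 2 libraries reduced the former to 0.45 and the latter to -0.08, over 19 libraries. The joint variation of drd1b with drd2a and drd2b thus rested largely on them. Without them drd2a and drd2b fell likewise, from 0.93 to 0.41. Such a fall was not seen in every receptor pair, as drd2b and drd4a went from 0.71 to 0.63. For th and drd3 the correlation was -0.60 over 21 and -0.66 over 19 libraries. These values are descriptions, and libraries share batch and depth.

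Across batches and groups, drd1b, slc18a2 and pde10a shared a pattern of levels. They were highest in batch 2 outside replicate 6 (drd1b 3.54 to 5.20 CPM, slc18a2 5.63 to 8.17 CPM, pde10a 31.8 to 57.6 CPM), intermediate in 5 mGy/h replicates 2 and 3 (slc18a2 2.23 and 2.99 CPM, pde10a 15.5 and 17.3 CPM) and low in the batch 1 controls (slc18a2 0.857, 0.565 and 0.500 CPM, pde10a 1.31, 2.40 and 1.86 CPM). The 0.5 mGy/h libraries were at the level of those controls, with slc18a2 at 0.724, 0.648 and 0.502 CPM. 5 mGy/h replicate 1 lay below those controls in each (drd1b 0.555, slc18a2 0.363 and pde10a 0.619 CPM). After subtraction of group means, drd1b correlated with slc18a2 at 0.95 over 21 and 0.10 over 19 libraries. With pde10a these values were 0.93 and -0.23, so agreement within groups rested largely on the 2 deviating libraries. At 5 mGy/h the log2 fold changes of slc18a2 (1.54, SE 0.641, unadjusted p 0.0423, edgeR adjusted p 0.839) and pde10a (2.59, SE 0.941, unadjusted p 0.0243, adjusted p 0.807) did not pass the test. Without 5 mGy/h replicate 1 both passed, slc18a2 at 2.02 (SE 0.299, adjusted p 0.00802) and pde10a at 3.15 (SE 0.322, adjusted p 0.00470). That fit, of 2 libraries against 3, called 1375 of 21673 genes (6.34%), 1325 of them higher.

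**Figure D4:**
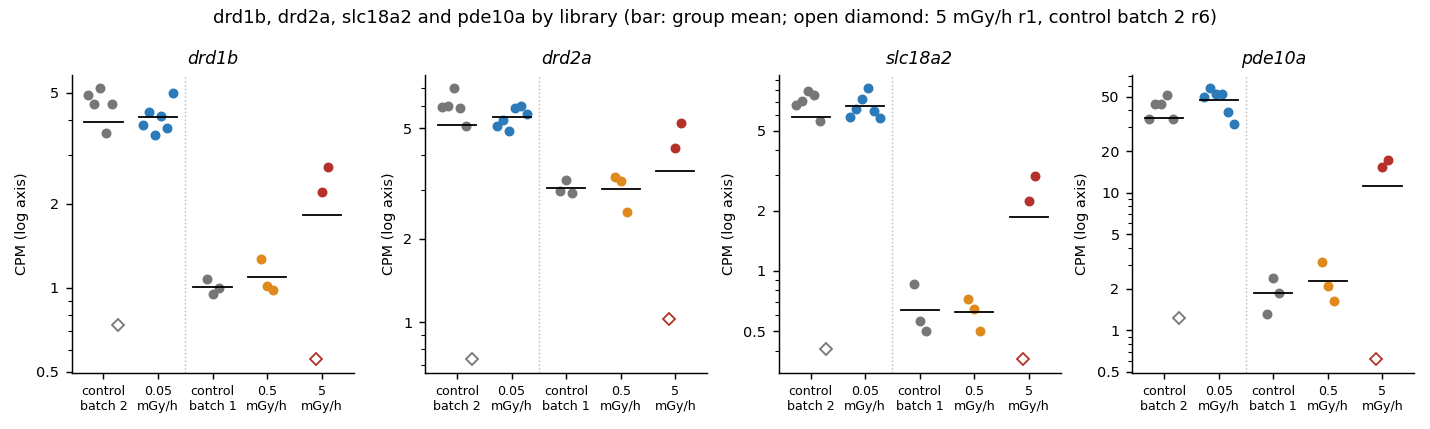
Levels of drd1b, drd2a, slc18a2 and pde10a in CPM (log axis) in every library; bars are group means and open diamonds mark 5 mGy/h replicate 1 and control batch 2 replicate 6. In the 4 genes 5 mGy/h replicates 2 and 3 lie above the batch 1 controls, for pde10a at 15.5 and 17.3 against 1.31 to 2.40 CPM, and replicate 1 lies below them.

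The other genes of the pathway were taken from lists by function, and 0 genes of these lists passed the test at any dose rate with all libraries. Without 5 mGy/h replicate 1, slc18a2, pde10a and the adrenoceptor adra1aa (4.46, SE 0.496, edgeR adjusted p 0.00470) passed at 5 mGy/h beside drd1b, where 6.34% of all genes were called. In batch 1 adra1aa was at 0.0156 to 1.00 CPM, so its lowest values were below the floor. Of the synthesis list (15 gene IDs, 11 tested in batch 2 and 12 in batch 1), 0 genes had an unadjusted p under 0.05 at any dose rate. Its medians were -0.09, 0.12 and 0.23. The extremes were dbh (0.37) and pcbd1 (-0.49, SE 0.245), a helper of tetrahydrobiopterin recycling, at 0.05 mGy/h, an SPR gene (ENSDARG00000058553, 1.12, SE 1.11), a sepiapterin reductase, and th2 (-0.90, SE 0.752) at 0.5 mGy/h, and th2 (0.66, SE 0.736) and dbh at 5 mGy/h. That SPR gene was at 0.0165 to 0.438 CPM in batch 1, so its lowest values were below the floor. In batch 2, pcbd1 was at 70.8 CPM in control replicate 6 and at most 31.6 CPM in the other libraries. Leaving that library out lowered its control mean from 35.0 to 27.8 CPM. The duplicate th2, a hydroxylase of hypothalamic cells in zebrafish, ranged from 0.271 to 3.32 CPM. The decarboxylase ddc, which makes dopamine from L-DOPA and serotonin from its precursor, was at 48.9, 6.92 and 11.6 CPM in batch 1 controls, 8.58, 35.3 and 19.5 CPM at 0.5 mGy/h, then 19.4, 35.3 and 38.0 CPM in the 5 mGy/h group. The high ddc libraries were those in which the pineal list was high. The raphe list (4 gene IDs, among them tph2 of serotonin synthesis) was high in them too. In the batch 1 controls the raphe list was at 29.0, 1.29 and 2.75 CPM. Its members did not all go together. In 5 mGy/h replicate 1, tph2 made up 16.3 of its 17.3 CPM. There slc6a4a, of the same list, was at 0.640 CPM, against 3.08 to 4.26 CPM in its group mates. Also on that list, fev reached at most 0.198 CPM in batch 1. On the pineal list, crx was at 5.59 CPM in 5 mGy/h replicate 1 and at 0.0131 to 2.83 CPM in its group mates. The part of these markers in the ddc values was not tested.

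On the transport and breakdown list (7 gene IDs, 6 tested), slc18a2 in the 5 mGy/h group was the only gene with an unadjusted p under 0.05, and the list medians were -0.04, 0.04 and 0.27 from the lowest to the highest dose rate. Apart from slc18a2 and slc6a3 the extremes were comtb (0.30, SE 0.232) at 0.5 mGy/h, a catechol-O-methyltransferase, and mao (-0.02, SE 0.0714) at 5 mGy/h, the monoamine oxidase, which stood at 132 to 195 CPM in all libraries. The noradrenaline transporter slc6a2 was at 92.7, 39.4 and 35.3 CPM in batch 1 controls and at 54.7, 89.6 and 97.2 CPM at 5 mGy/h. Its high control, replicate 1, was again the one with the high pineal list (206 CPM), and the groups overlapped. That library was also the highest control of the batch for the raphe list (29.0 CPM) and the preoptic and hypothalamic list (401 CPM).

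Of the dopamine receptor list (12 gene IDs, 7 tested in batch 2 and 10 in batch 1), only drd7 had a low unadjusted p, in the 5 mGy/h group (1.49, SE 0.506, p 0.0181, edgeR adjusted p 0.807), on at most 15 reads in any library. The other extremes were drd2b and drd3 at 0.05 mGy/h, drd7 (0.97, SE 0.516) and drd2l (-0.50, SE 0.847) at 0.5 mGy/h and drd2l (-0.18, SE 0.832) at 5 mGy/h. Of the adrenoceptors, the receptors for noradrenaline and adrenaline (15 gene IDs, 10 tested), adrb1 had an unadjusted p under 0.05 at 5 mGy/h (-0.92, SE 0.307, p 0.0169, edgeR adjusted p 0.807). It was also the lowest of the list at 0.5 mGy/h (-0.68, SE 0.305), where adra1ab was the highest (0.29, SE 0.190). adra2a was the highest at 0.05 mGy/h (0.48, SE 0.283) and the lowest at 5 mGy/h (-1.16, SE 0.560). The adrenoceptor medians were 0.13, 0.04 and 0.08.

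Of the genes of receptor transduction and striatal output (14 gene IDs, all tested), 3 had an unadjusted p under 0.05 at 5 mGy/h, all with higher levels: pde10a, the enkephalin precursor penka (0.34, SE 0.114, p 0.0178) and RGS9 (ENSDARG00000045156, 0.63, SE 0.216, p 0.0187), a brake on G protein signals, each at an edgeR adjusted p of 0.807, where 5.76% of all genes had such an unadjusted p. The pde10a estimate came from 2 of the 3 libraries, replicate 1 being below the controls. The list median at 5 mGy/h was 0.11. At 0.05 mGy/h tac1 was lower (-0.65, SE 0.296, p 0.0473, adjusted p 0.750), with its highest value in control replicate 6, without which it was -0.21 (SE 0.108, adjusted p 0.640), and foxp1b was the highest of the list (0.47, SE 0.343). The extremes at 0.5 mGy/h were pde10a (0.32, SE 0.900) and the second RGS9 ID (ENSDARG00000037925, -0.67, SE 0.866). At 5 mGy/h foxp1b was the lowest (-0.29, SE 0.307). Both foxp1b extremes took in a deviating library. In control batch 2 replicate 6 foxp1b was at 0.614 CPM, against at least 3.50 CPM in the rest of the batch. In 5 mGy/h replicate 1 it was at 2.35 CPM. Its group mates had a mean of 5.44 CPM, beside 5.42 CPM in the batch 1 controls. Among transcription factors of catecholaminergic neurons (15 gene IDs, 6 tested), OTP, a factor of hypothalamic dopamine neurons, was lower at 0.05 mGy/h (-0.56, SE 0.246, p 0.0405, adjusted p 0.750), next to otpa (-0.57, SE 0.312). en1b was the highest of the list at every dose rate (0.39, 0.92 and 0.86), and the lowest were OTP at 0.5 mGy/h (-0.26) and lmx1bb at 5 mGy/h (0.04). Without control replicate 6, OTP was at -0.53 (SE 0.241, adjusted p 0.624) and otpa at -0.24 (SE 0.212, adjusted p 0.807). In that library OTP lay within the range of the other controls (9.75 against 5.19 to 10.3 CPM), and otpa above it (32.0 against 6.85 to 16.5 CPM).

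Between dose rates run in different batches, the changes of list genes at 0.5 and 0.05 mGy/h differed at an unadjusted edgeR p under 0.05 for another SPR gene (ENSDARG00000004406, 0.44, p 0.0442) and adrb1 (-2.38, p 0.0478). The largest differences between 5 and 0.05 mGy/h were those of adra1aa (3.57, SE 1.03, p 0.00261) and adrb1 (-2.62, p 0.0317). Both genes came down to the floor. In batch 1 adra1aa was at 0.0156 to 1.00 CPM, and in batch 2 adrb1 was at 0 to 0.567 CPM. An unadjusted p under 0.05 was also found for adra2a (-1.64, p 0.0129), OTP (1.27, p 0.0355), pcbd1 (0.82, p 0.0375), comtb (0.55, p 0.0360) and dbh. All had an edgeR adjusted p of at least 0.879. The pcbd1 differences took in control batch 2 replicate 6, at 70.8 CPM against at most 31.6 CPM in the rest of that batch. In the same library foxp1b was at 0.614 CPM, against at least 3.50 CPM in the rest. The other extremes were th2 (-0.62 and 0.95), pcbd1 (0.54), comtb (0.39), slc18a2 (-0.21 and 1.36), comta (-0.05), drd3 (0.22), drd6b (-0.48), drd1b (0.80), drd4b (-0.16), adra1aa (0.78), tac1 (0.69), RGS9 (ENSDARG00000037925, -0.73), pde10a (2.17), foxp1b (-0.78), en1b (0.52) and nr4a2b (-0.07 and 0.19), none of them at an unadjusted p under 0.05.

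The genes with the most similar pattern over the 21 libraries were ranked among 18487 named genes by the Pearson correlation of log2(CPM + 0.5) after subtraction of group means, as a description. For th these were COL5A1 (0.82, and 0.83 over the 19 libraries without the 2 deviating ones), PLTP (0.80, 0.77) and cers3b (0.75, 0.67), and for dbh TRPA1 (0.79, 0.82), tob1b (0.79, 0.71) and arpp21 (0.77, 0.69). slc6a3 went with zgc:122979 (0.94, 0.90), which ranged from 76.8 to 1089 CPM, with hspa1b (0.88, 0.75), a heat shock protein, and with hycc1 (0.87, 0.72). The 3 receptors drd1b, drd2a and drd2b had the highest correlations. For drd1b they were zdhhc20a (0.98, 0.63), SLC25A13 (0.98, 0.54) and RAB30 (0.97, 0.50), for drd2a nudt3a (0.99, 0.73), OAF (0.99, 0.75) and NAPB (0.99, 0.67), and for drd2b ptpn11b (0.99, 0.91), lgi1b (0.99, 0.86) and NRBP2 (0.98, 0.83). drd3 was closest to DNPEP (0.90, 0.79), OTUD5 (0.90, 0.70) and PDCD10 (0.88, 0.65), drd4a to HSPB8 (0.92, 0.88), shoc1 (0.90, 0.90) and shroom2a (0.90, 0.91), and drd4b to CYTH3 (0.95, 0.80), PRR12 (0.95, 0.80) and GIT2 (0.94, 0.80).

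The drd4b locus also had reads on the strand opposite to the gene, which the stranded count leaves out. In batch 1 they outnumbered the gene's own reads, at 63 to 202 per library, against 0 to 22 in batch 2. As reads per megaread counted they were 1.28, 1.31 and 1.87 in controls, 2.59, 1.75 and 2.99 at 0.5 mGy/h, then 2.84, 2.82 and 3.04 in the 5 mGy/h group. All 3 libraries at 5 mGy/h thus exceeded all 3 controls, and the means differed 1.95-fold (exact permutation test, two-sided, p = 0.10, the smallest that 3 against 3 libraries allow). The share of all genes whose opposite-strand reads separate in this way was not computed, so this separation cannot be set against a background. At 0.5 mGy/h the groups overlapped (p = 0.20, exact permutation test). In batch 2 the means were 0.255 in controls and 0.361 at 0.05 mGy/h (exact permutation test, p = 0.474). Which transcript gives these reads was not tested, and counts made without strand gave drd4b log2 fold changes of 0.53 (0.5 mGy/h) and 0.32 (5 mGy/h) in place of 0.13 and 0.01.

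**Figure D5:**
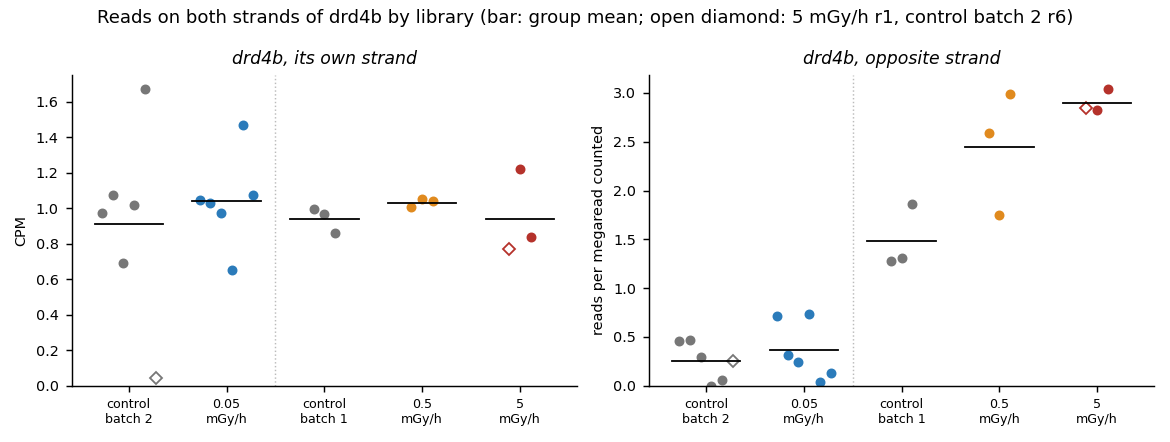
Reads on the strand of drd4b (left, CPM) and on the opposite strand (right, reads per megaread counted) in every library, with batch 2 left and batch 1 right of the dotted line; bars are group means and open diamonds mark 5 mGy/h replicate 1 and control batch 2 replicate 6. The opposite strand is at 2.82 to 3.04 at 5 mGy/h and at 1.28 to 1.87 in the controls of that batch, while the gene's own strand overlaps between these groups.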

How the data were processed

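Per the labels and the files' own layout, the authors deposited raw read counts per Ensembl gene in the layout of STAR, without normalization, on GRCz11, and DESeq2 1.22.2 is named in the submitters' processing notes. The counts of the strand matching the kit were used here, and counts without strand were an alternative. Reads counted on genes came to 19.03 to 71.6 megareads per library, and the floor of 3 counts covers counting error only. Gene IDs were paired with names from a reference name table and the pairs in the study's supplement. Levels are CPM with TMM scaling, not corrected for length, so genes were not ranked by level. Tests used edgeR 4.0.16 in R 4.3.3 (TMM, filterByExpr, quasi-likelihood, Benjamini-Hochberg over all genes tested) within each batch, and an interaction over all 21 libraries for differences between batches. The edgeR steps, written again for this purpose, were run on simulated counts that held no deviating library. The outcome is not reported here.

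Alternatives were DESeq2 1.42.0, other scaling and filters, unstranded counts, a replicate block, other sets of libraries and leaving out each library. A set of 18 libraries came from an earlier analysis of these data, which searched for fold changes nearest to the study's, so it is no independent support. Every one of the 9 genes is named, and of each list up to 3 genes per comparison with the lowest unadjusted p under 0.05, the highest and lowest change, and a few fixed partners, except for a few results that are not reported here. The members and lists were chosen with earlier results of these data known. Same-numbered libraries deviated together in batch 2 (correlations 0.170 to 0.293 over 6 pairs, from the data). Differently numbered pairs of that batch ran from -0.339 to 0.313, however, and no label states a pairing. Whether the numbers pair the libraries is therefore not known, and the main fits did not pair them. In batch 1 same-numbered libraries did not deviate together (-0.529 to 0.107).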

Additional observations from a re-analysis of the deposited data

Results flagged for a closer look

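In control batch 2 replicate 6, 5 of the 9 genes stood far from the other 5 controls by Dixon's criterion. slc6a3 was highest at 23.0 CPM and drd3 at 12.5 CPM, while drd1b and drd2a were lowest at 0.737 CPM each, and drd2b at 0.369 CPM. Of 18 groups of values tested in this way, those of the 9 genes in the batch 2 groups, 5 stood apart, all in that library. Genes of the same library vary together, so this count was not set against chance. The batch 1 groups were not tested in this way, so 5 mGy/h replicate 1 could not be flagged. Outside the main counts were the reads on the strand opposite to drd4b, whose mean was 2.90 per megaread counted at 5 mGy/h, against 1.49 in the controls of that batch (exact permutation test, two-sided, p = 0.10, the smallest that 3 against 3 libraries allow). No background over all genes was computed for that strand.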

How the results depend on the processing

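Of 678 values under alternatives over 38 results, 626 kept direction and side of the threshold, 7 newly passed it and 45 changed sign. Of the 9 genes, 1 (drd1b) was called at 5 mGy/h without 5 mGy/h replicate 1, and the range over single libraries left out was 0 to 1. It was 1 also in 17 libraries. Without 5 mGy/h replicate 1 and control batch 2 replicate 6, 2 genes (drd1b, drd2a) differed between 5 and 0.05 mGy/h. The set of 17 libraries and the one without those 2 libraries were chosen after seeing the data. Estimates near 0 changed sign. In 18 libraries those at 0.05 mGy/h were -0.17 (drd1b), -0.14 (drd2a), -0.077 (drd2b) and -0.085 (drd4b), drd4a at 0.5 mGy/h was 0.28 (also 0.28 in 17 libraries), and the drd2a difference of 0.5 minus 0.05 mGy/h was 0.011 (0.12 without the 2 deviating libraries). In 17 libraries slc6a3 at 5 mGy/h was -0.0095. Unstranded counts gave -0.023 for drd4b at 0.05 mGy/h and 0.012 for drd2a at 0.5 mGy/h, and RLE scaling gave -0.0030 for drd4b at 5 mGy/h. The cause of these changes was not tested.

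With the replicate number as a block, drd4a at 0.05 mGy/h was 0.019, drd2a at 0.5 mGy/h 0.0093 and drd4b at 5 mGy/h -0.014, the difference from 0.05 mGy/h was -0.061 for drd1b at 0.5 mGy/h and -0.19 for drd2a at 5 mGy/h, and the block changed no call of the 9.

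Leaving out single libraries gave these ranges. At 0.05 mGy/h they were -0.19 to -0.048 for th, 0.25 to 0.50 for dbh, -0.38 to -0.037 for slc6a3, -0.24 to -0.083 for drd3, -0.17 to 0.14 for drd1b, -0.14 to 0.19 for drd2a, -0.077 to 0.30 for drd2b, -0.15 to 0.11 for drd4a and -0.085 to 0.42 for drd4b. At 0.5 mGy/h they were -0.11 to 0.30 for th, -0.26 to 0.0076 for dbh, -0.16 to 0.14 for slc6a3, -0.012 to 0.18 for drd1b, -0.095 to 0.11 for drd2a, -0.20 to 0.081 for drd2b, -0.030 to 0.11 for drd3, -0.26 to 0.11 for drd4a and 0.074 to 0.18 for drd4b. At 5 mGy/h they were -0.11 to 0.57 for th, -0.036 to 0.27 for slc6a3, 0.45 to 1.28 for drd1b, -0.21 to 0.63 for drd2a, 0.011 to 0.52 for drd2b, -0.38 to -0.011 for drd3, 0.045 to 0.40 for drd4a, -0.85 to -0.34 for dbh and -0.23 to 0.13 for drd4b.

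Over all genes, the counts of calls were 1, 1 and 1 (0.05, 0.5, 5 mGy/h) in edgeR, 15, 11 and 88 in DESeq2, 8, 1 and 43 in 18 libraries, and 0, 0 and 0 with the block. They were 73 and 1353 for the batch 1 dose rates in 17 libraries, and ran from 0 to 8, 0 to 1 and 0 to 1375 with single libraries left out.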
